A study of Xenopus laevis with 3 samples.

Results

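Amino acid changes that replace a proline were described in Xenopus laevis, the African clawed frog. They are the entries of the deposited per-site table whose reference residue is proline, and they number 1441 of 29008 missense sites (4.97%), in 1279 of the 11603 genes listed. The sites were called by the authors from RNA of whole NF (Nieuwkoop-Faber) stage 42 tadpoles, pooled 10 per cross. There were 3 libraries: 1 from offspring of an inbred albino population crossed with the inbred pigmented J strain, 1 from inbred albino offspring and 1 from inbred J strain offspring. All were raised in the same saline with gentamycin, and no other agent is given; the short strain codes in the labels conflict with the titles, which were followed here. Depth was stated by the submitters as 30000000 to 47000000 paired-end reads of 100 bases per library. No column of the tables names a library, so no site can be assigned to a cross and there is no spread between replicates. Intervals (95%) are Wilson intervals for shares and Newcombe intervals for differences of shares, and they cover counting error only. Sites of the same gene share their source and are not replicates.

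Proline is the residue whose side chain closes back onto the backbone nitrogen. This ring stiffens the chain, interrupts helices and strands, and favours turns. Repeated prolines form the extended polyproline helix, which SH3, WW and EVH1 domains of signalling and actin-regulating proteins bind, and proline fills much of the repeat that winds collagen into a triple helix. Its codons all begin with CC, so that a change of a single base leads to serine, threonine or alanine at the first position and to leucine, glutamine, histidine or arginine at the second position.

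The probability that a change damages the protein came from PolyPhen-2 with its HumVar model, which was trained on human variants and compares the residues aligned at a site among related proteins. In the deposited table, sites were called possibly damaging at a probability of 0.447 or more and probably damaging at 0.909 or more. A prediction was given for 1136 proline sites, and 305 (21.2%) had none. Among all other reference residues 16.7% had none, a difference of 4.50 percentage points (2.43 to 6.73). All sites with a prediction had at least 1 aligned residue.

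Proline was the reference residue with the highest share of damaging sites. Of the 1136 predicted proline sites 421 (37.1%, 34.3 to 39.9) were damaging, 244 of them possibly and 177 probably, against a background of 19.9% over all predicted sites. At all other residues together 4382 of 22974 predicted sites were damaging (19.1%, 18.6 to 19.6), a difference of 18.0 points (15.2 to 20.9). Glycine, the most flexible residue, came next with 36.0% (33.2 to 38.9), and its difference from proline, 1.06 points, had an interval that included 0 (-2.95 to 5.06). Leucine followed with 32.2% (29.9 to 34.6), 4.85 points below proline (1.20 to 8.52). At the low end, methionine sites were damaging in 3.30% and histidine sites in 7.78% of cases.

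The order of proline and glycine depended on the class. Probably damaging sites made up 15.6% at proline (13.6 to 17.8), against a background of 6.96% over all predicted sites. At glycine they made up 24.9% (22.4 to 27.6), so that proline was lower, by a difference of -9.35 points (-12.7 to -6.01). The gap was widest where few residues were aligned. With 1 aligned residue the shares were 3.74% at proline and 46.2% at glycine, and with 2 to 9 they were 11.4% and 30.4%. With 10 to 49 they were 18.0% and 17.7%, and with 100 or more 14.8% and 21.1%. With 50 to 99 the counts were 63 of 295 and 64 of 278. In each bin of 10 or more the intervals of proline and glycine overlapped. Possibly damaging calls numbered 244 at proline and 119 at glycine.

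**Figure D1:**
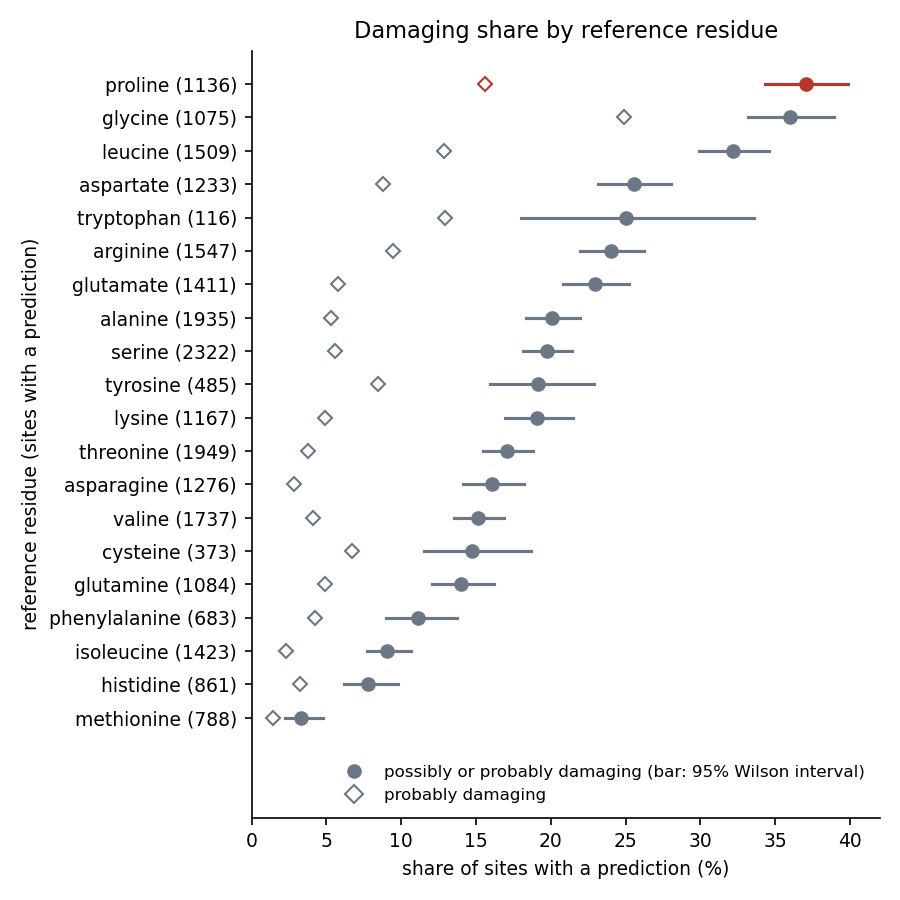
Share of predicted sites called possibly or probably damaging (filled circles, with 95% Wilson intervals) and probably damaging (open diamonds), in percent, for each of the 20 reference residues, with the number of predicted sites in brackets. Proline (red) lies at 37.1% and 15.6%, next to glycine at 36.0% and 24.9%.

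The predicted probabilities of proline sites lay mostly at the ends of the scale. Their median was 0.116 (quartiles 0.003 and 0.810), against 0.009 (0 and 0.240) at all other residues. Values of 0.9 or more made up 17.4% of proline sites and 6.86% of the others, beside 7.36% over all predicted sites, and values from 0.8 to 0.9 made up 11.0% and 3.02%. Values under 0.1 made up 49.3% of proline sites and 68.5% of the others. The proline sites just above the lower class boundary were gspt1.S P132T (0.449), slitrk1.L P301S (0.450) and atxn1-like.S P50H (0.454). Those just below it were lrba.S P2304S (0.446), an unnamed gene (0.445) and dchs1.S P2161T (0.444). Changes are written with the reference residue first, and positions count from 1 in the authors' protein models. Homeologs, the gene copies on the long (L) and short (S) subgenome of this allotetraploid frog, carry the letter of their subgenome.

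**Figure D2:**
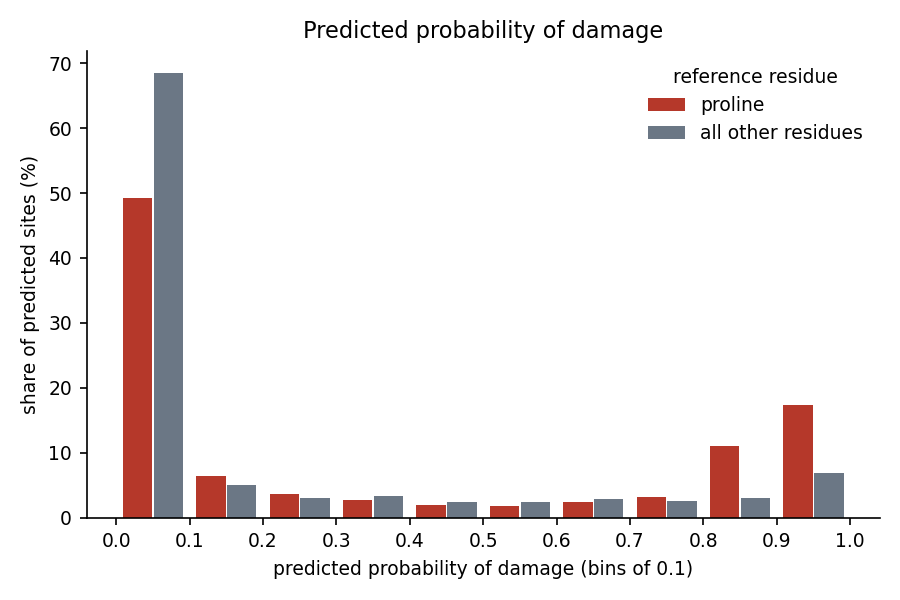
Share of predicted sites (percent, vertical axis) in bins of 0.1 of the predicted probability of damage (horizontal axis), for proline (red) and for all other reference residues (grey). Proline has 17.4% of its sites in the top bin, against 6.86%, and 49.3% in the lowest bin, against 68.5%.

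All 7 residues that a single base change can reach were found in place of proline, and no other residue was. Every listed site, at any reference residue, was an exchange that a single base change can reach, so the absence of others is not a trait of proline. This was judged from the pair of residues, and the codons themselves were not read. Serine was the most frequent with 423 sites (29.4%), followed by leucine with 329 (22.8%), threonine with 208 (14.4%), glutamine with 168 (11.7%), alanine with 157 (10.9%), histidine with 101 (7.01%) and arginine with 55 (3.82%). Serine and leucine, which arise from proline codons by a transition (an exchange of C and T), made up 752 sites or 52.2% (49.6 to 54.8). The other 5 residues need a transversion.

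Changes in the opposite direction, with proline as the new residue, were fewer: 1193, so that proline was the reference residue in 54.7% (52.8 to 56.6) of the sites that lose or gain it. The ratio of losses to gains was highest for leucine, at 1.44 (329 and 229 sites), and lowest for alanine, at 0.952 (157 and 165 sites). Serine (423 and 348 sites) had a ratio of 1.22. Serine and leucine made up 48.4% (45.5 to 51.2) of the gains. How the reference allele was chosen is not given in the sources used here, and the split into losses and gains depends on it.

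Replacement by histidine or arginine was the most often damaging. Histidine, a ring-bearing residue that can carry a positive charge, was damaging at 45 of 79 predicted sites (57.0%, 46.0 to 67.3) with a median probability of 0.661. Arginine, long and positively charged, was damaging at 24 of 44 (54.5%, 40.1 to 68.3) with a median of 0.773. The other 5 residues ranged from 30.7% at alanine (39 of 127, 23.4 to 39.2) to 38.4% at threonine (63 of 164, 31.3 to 46.0). Between them lay glutamine at 32.3% (42 of 130), serine at 34.1% (114 of 334) and leucine at 36.4% (94 of 258), and the intervals of these 5 overlapped. Histidine and arginine together exceeded them by 21.3 points (56.1% against 34.7%, interval of the difference 12.0 to 30.3). Among sites with at least 10 aligned residues the difference was 21.1 points (9.33 to 32.4). There histidine stood at 55.8% (29 of 52, 42.3 to 68.4). Arginine stood at 47.8% (11 of 23, 29.2 to 67.0) with a median of 0.297, and its interval overlapped those of the other 5. Histidine and arginine were grouped after their values were seen.

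Probably damaging calls were most frequent among changes to histidine. They made up 34.2% of changes to histidine (27 of 79, 24.7 to 45.2) and 18.2% of changes to arginine (8 of 44, 9.51 to 32.0), and the intervals overlapped. For the other residues they ranged from 11.5% at glutamine to 17.7% at threonine. Of the 27 calls at histidine, 4 with 1 aligned residue and 7 with 2 to 9 had the same value, 0.952. With so few aligned residues, the commonest damaging values of the residues other than histidine, 0.737 to 0.908, lay below the boundary of 0.909. The median difference between the profile score of proline and that of the new residue, the measure of PolyPhen-2 for how much better proline suits the aligned column, was 2.55 for histidine and 2.08 for arginine. It was 1.15 for leucine, 1.09 for threonine, 0.972 for glutamine, 0.737 for serine and 0.666 for alanine. This score is an input to the probability, not independent support for it.

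The same exchanges were damaging less often when proline was gained. Over all 7 residues, 37.1% of losses and 14.8% (134 of 907, 12.6 to 17.2) of gains were damaging, a difference of 22.3 points (18.6 to 25.9). For histidine the shares were 57.0% of losses and 14.3% of gains, a difference of 42.7 points (26.8 to 55.1). For leucine they were 36.4% and 20.7%, a difference of 15.7 points (6.84 to 23.9), and for alanine 30.7% and 15.6%, a difference of 15.1 points (4.65 to 25.2). The share was higher for the loss in each of the 7 exchanges, and none of the 7 intervals of the difference included 0.

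**Figure D3:**
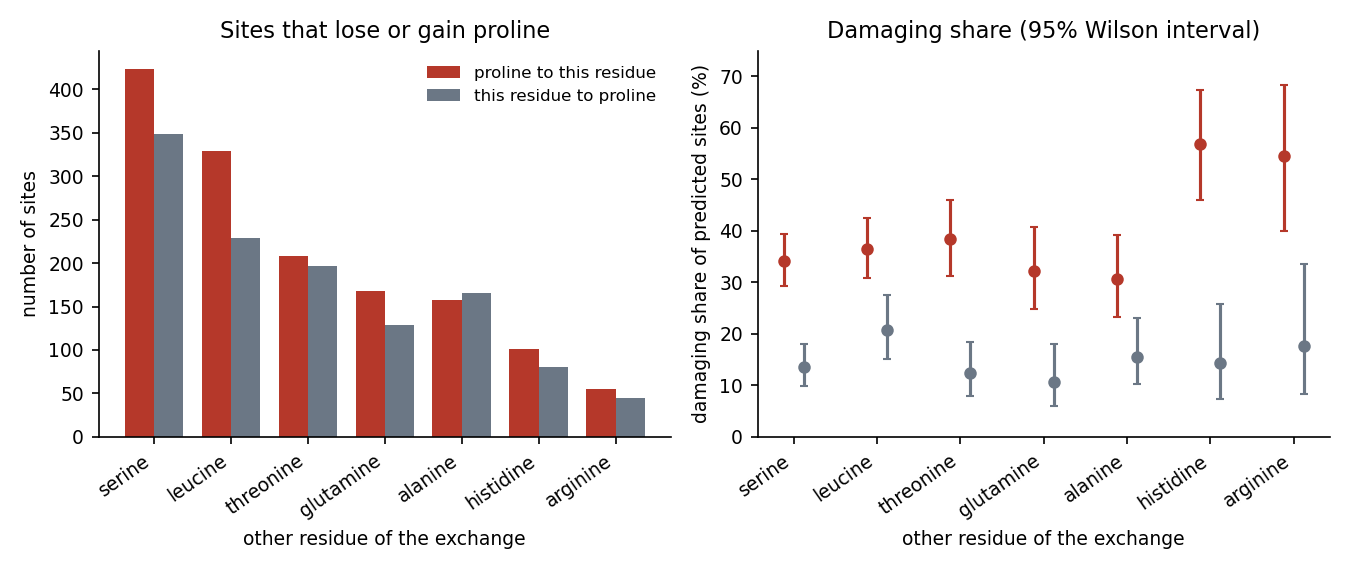
Left, number of sites for each exchange in which proline is lost (red) or gained (grey). Right, damaging share of the predicted sites in percent, with 95% Wilson intervals. Losses to histidine (57.0%) and arginine (54.5%) are the highest, and gains lie between 10.7% and 20.7%.

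Whether the new residue already occurs at the site in related proteins was a further difference from other residues. PolyPhen-2 lists a similarity value for aligned sequences that carry the new residue, and this value was filled at 459 of 1136 predicted proline sites (40.4%, 37.6 to 43.3). At all other residues it was filled at 57.2% (56.5 to 57.8), a difference of -16.8 points (-19.7 to -13.8), and proline had the lowest share of the 20 residues. Serine was found most often among the new residues, at 50.6% of sites (45.3 to 55.9), followed by alanine at 45.7%. Arginine was found at 13.6% (6 of 44, 6.40 to 26.7) and histidine at 27.8% (22 of 79, 19.2 to 38.6). The share rose with the number of aligned residues. With 1 it was 17.8% at proline and 28.1% at other residues, and with 100 or more 68.4% and 80.1%. Proline was lower in each bin. Changes to arginine had 0 predicted sites with 100 or more, and the new residues were not compared at equal numbers of aligned residues. Where the new residue was found, 29 of 459 proline sites were damaging (6.32%, 4.43 to 8.93), against 390 of 13138 other sites (2.97%). Where it was not found, 392 of 677 proline sites (57.9%, 54.1 to 61.6) and 40.6% of the other sites were damaging. This value is drawn from aligned sequences, which the prediction also compares, so it is not independent support for the calls. Whether it enters the prediction itself was not tested.

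The number of aligned residues decides how much a prediction rests on. Over all sites with a count, including those with 0 and no prediction, its median was 20 at proline and 35 at other residues. Among predicted sites, 766 of 1136 at proline and 16488 of 22974 at other residues had at least 10. With 1 aligned residue, 55 of 107 proline sites were damaging (51.4%, 42.0 to 60.7). With 2 to 9 residues the share was 39.2% (103 of 263, 33.5 to 45.2), with 10 to 49 it was 30.4% (96 of 316, 25.6 to 35.7), with 50 to 99 it was 39.3% (116 of 295, 33.9 to 45.0) and with 100 or more it was 32.9% (51 of 155, 26.0 to 40.6). Other residues had 25.9%, 19.0%, 17.0%, 20.6% and 17.1% in the same order of bins. Proline was above them in each bin, with intervals that did not overlap. With at least 10 aligned residues the shares were 34.3% (263 of 766) and 18.3%, a difference of 16.0 points (12.7 to 19.5). There proline and glycine, at 32.9%, differed by 1.45 points (-3.31 to 6.20).

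Single values piled up where few residues were aligned. Of the 107 proline sites with 1 aligned residue, 55 had the same profile score for proline, -1.46, and all 55 were damaging. Their probability was set by the new residue: 0.810 at the 18 serine and 5 threonine sites, 0.737 at 5 alanine sites, 0.908 at 3 glutamine and 4 arginine sites, and 0.952 at 4 histidine sites. Leucine alone had more than a single value, with 0.856 at 15 of its 16 sites and 0.682 at the other. The other 52 sites had other scores, a probability of 0.034 or less and 0 damaging calls, which allows a share of up to 5.77% by a limit of 3 counts. In all, 124 proline sites (10.9% of those predicted) carried one of the commonest damaging values of this group, and 123 of them had fewer than 10 aligned residues.

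**Figure D4:**
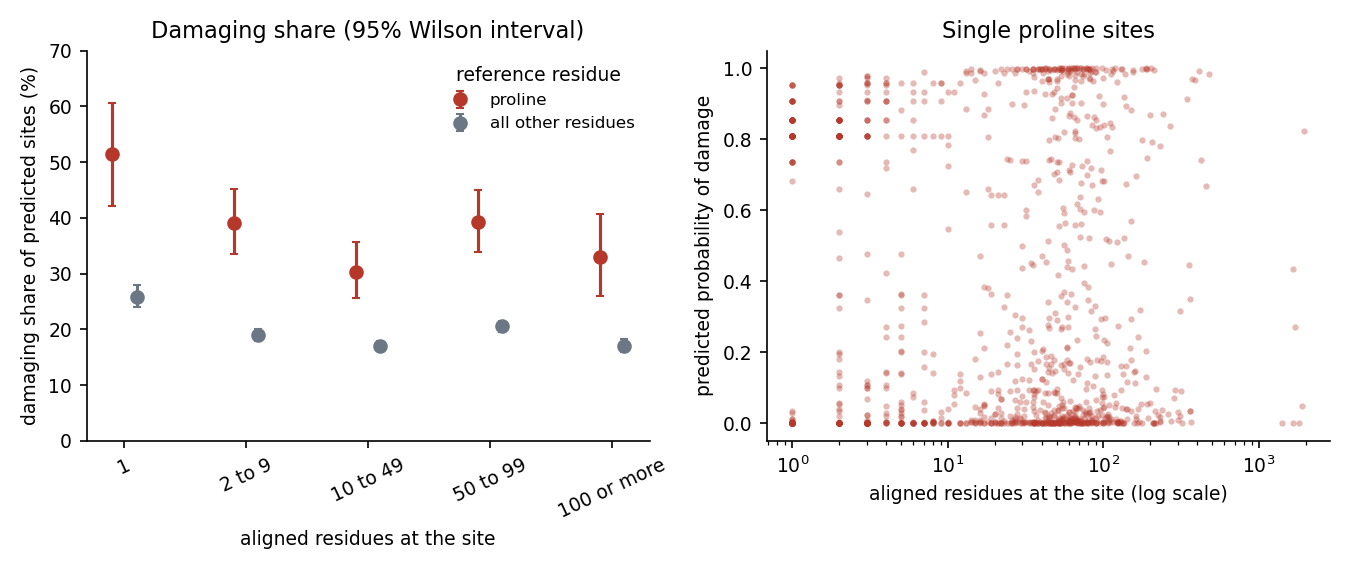
Left, damaging share of predicted sites (percent, with 95% Wilson intervals) by the number of aligned residues, for proline (red) and for all other residues (grey). Right, predicted probability of each proline site against its number of aligned residues on a log scale; many sites with fewer than 10 aligned residues fall on a few fixed levels such as 0.810 and 0.856.

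The best supported damaging sites lay in genes of varied roles. At a probability of 0.99 or more with at least 10 aligned residues there were 87 proline sites of 766 (11.4%, 9.30 to 13.8), each in a different gene. The share was 3.15% at all other residues, 11.3% at glycine and 2.50% among sites that gain proline. For serine, the highest probabilities among copies with a symbol were those of P953S in the histone demethylase kdm5b.S and P50S in mtfr1.S, a regulator of mitochondrial fission, both listed at 1 with 72 and 57 aligned residues. For leucine 6 sites tied at 1, and those with the most aligned residues were P371L in the kinase bmp2k.L (189 aligned residues) and P3413L in the giant cadherin fat1.S (98).

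Changes to threonine, glutamine and alanine had similar leading sites. The phospholipase pnpla8.S carried P550T and the vitamin D binding protein gc.S carried P101T, both listed at 1, with 118 and 68 aligned residues. The lysosomal membrane protein lamp2.L carried P212Q and the kainate receptor partner neto2.L carried P215Q, with 77 and 60, the best aligned of 3 glutamine sites at 1. The giant scaffold ahnak-like.S carried P871A (0.999, 187 aligned residues) and the mitochondrial fission adaptor mief1.S carried P226A (0.998, 48). For histidine, c6orf136.S, a poorly characterised gene, held P280H (1, with 62 aligned residues) and the matrix protein papln-like.L held P299H (0.999, 74). For arginine, the lysosomal protease cathepsin S, ctss.L, held P119R (1, with 64 aligned residues) and the methyl-CpG binding protein mbd5.L held P990R (0.998, 30). At none of these 14 sites was the new residue found in an aligned sequence. It was not found at 59.6% of all predicted proline sites. The 14 were picked by their probability, which was mostly low where it was found, so this is a description.

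Most genes held a single proline site: 1147 of 1279 (89.7%) held 1, 114 held 2 and 18 held 3 or more. The most, 8, were in a gene without a name (Xelaev18029632m), and 1 of these had a prediction. Among the 515 copies with a symbol, pprc1-like.S, related to the PGC-1 family of transcriptional coactivators, held 6 of its 43 missense sites at proline (P800L, P849A, P925S, P948H, P1048T and P1122A). None of the 6 had an aligned residue, so none had a prediction. The proline-rich protein prrc2a.S followed with 4 of 21 missense sites.

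Of the 4 sites of prrc2a.S, 3 were probably damaging. P415L had a probability of 0.999 with 81 aligned residues, P854L 0.960 with 6 and P798H 0.952 with 4, while P1516A was benign (0.008). It was the only copy with a symbol that held 3 or more damaging proline sites. The copies with a symbol and 3 proline sites were mia3-like.1.S, bsn.L, nes.L and prcc.L. In mia3-like.1.S, related to a factor that loads collagen into transport vesicles, P2138H (0.952) and P2053H (0.661) were damaging on 2 aligned residues each and P2255A was benign. In bsn.L, which encodes the presynaptic scaffold bassoon, P302S was probably damaging (0.935, 3 aligned residues), while P1385T (0.085) and P279T (0) were benign. All 3 sites of the nestin copy nes.L (P415A, P1177S and P1413T) were listed at 0, and at each the new residue was found in an aligned sequence. None of the 3 sites of the splicing-associated prcc.L had a prediction, while prcc.S held P420R, possibly damaging at 0.908 with 6 aligned residues, and P651L, benign at 0.

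Of the 49 copies with a symbol that held 2 proline sites, 10 held 2 damaging ones, 21 held 1 and 18 held 0. Both sites had a prediction in 41 of the 49, and sites without one were counted as not damaging. Over all copies with a symbol 39.7% of predicted proline sites were damaging. The 6 described next were taken from this tie of 49 copies by their damaging calls and then their highest probability, so that their calls are a description. In ssh2-like.L, related to a phosphatase that activates the actin-severing protein cofilin, P1415H (0.999) and P1398L (0.934) had 48 aligned residues each. In the endocytic adaptor numbl.S, a relative of the Notch antagonist numb, P345S had a probability of 0.984 and P473T one of 0.697, with 137 and 162 aligned residues. In ahnak-like.S, P315S (0.839, 269 aligned residues) joined P871A. The calls of the stress-response factor ddit3.S (P85R at 0.973 and P85T at 0.960), the Rab regulator tbc1d10b.S (P534L at 0.960 and P275T at 0.810) and the myelin protein gene prx.S (P686H at 0.952 and P258A at 0.737) rested on 1 to 3 aligned residues. Over all genes 402 held a damaging proline site and 18 held 2 or more. Of these 18, 12 had a symbol, and 18 of their 25 damaging proline sites rested on fewer than 10 aligned residues. Over all reference residues 3470 of the 11603 listed genes held a damaging site. In 244 of the 402 genes no site at another reference residue was damaging. The like count was not made for other residues, so 244 is not a trait of proline.

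The subgenomes carried similar shares of proline sites. S copies held 414 proline sites among 7464 missense sites (5.55%, 5.05 to 6.09), L copies 347 of 6226 (5.57%, 5.03 to 6.17), and genes that the pair table does not list 680 of 15318 (4.44%, 4.12 to 4.78). Damaging sites were 140 of 343 predicted in S copies (40.8%, 35.7 to 46.1) and 106 of 292 in L copies (36.3%, 31.0 to 42.0). The difference of 4.51 points had an interval from -3.09 to 12.0, and it turned to -0.719 with at least 10 aligned residues and to -2.03 when only probably damaging sites were counted. Among genes not paired, 34.9% (175 of 501, 30.9 to 39.2) were damaging. Sites without a prediction made up 17.1% of proline sites in S copies, 15.9% in L copies and 26.3% among genes not paired.

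Both copies were listed for 1329 homeolog pairs, and in these the S copy held a proline site in 188 (14.1%) and the L copy in 190 (14.3%). In 38 of these pairs both copies held one, which is 20.2% of the 188 and 20% of the 190; these shares were not tested. S held more proline sites in 160 of the pairs and L in 162. Of the 38 pairs with a proline site in both copies, 3 held a damaging one in both. The like count was not made for other reference residues, so 3 is not a trait of proline. Pairs with a symbol were ordered by their proline sites. Those with the most were pprc1-like (6 in S and 1 in L), bsn (2 and 3) and prcc (2 and 3), then palb2 (2 and 2), mia3-like.1 (3 and 1) and tbc1d10b (2 and 2). Another 11 pairs held 3 in all, of which ahnak-like (2 and 1) and prrc2c (1 and 2) are described, ties being broken by damaging sites and then by symbol. In palb2, a partner of BRCA2 in DNA repair, all 4 sites were possibly damaging: P636T (0.810) and P1052L (0.856) in S, and P722L (0.856) and P852R (0.908) in L. Each rested on 1 or 2 aligned residues and carried one of the fixed values. In prrc2c, another proline-rich gene, P455L of S (0.856, 1 aligned residue) and P675A of L (0.619, 68 aligned residues) were possibly damaging and P844T of L was benign (0.043). No pair had a proline change at the same position number in both copies.

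Gene lists were compared by the share of their missense sites at proline, beside 580 of 10002 (5.80%, 5.36 to 6.27) over all copies with a symbol. Collagens, the triple-helical proteins of matrix and basement membrane, held 8 of 43 (18.6%, 9.74 to 32.6) in 7 of 20 listed copies. Over all copies with a symbol 200 of 504 predicted proline sites were damaging (39.7%, 35.5 to 44.0). Of the 5 predicted collagen sites 2 were damaging, a share near it: P689Q in col4a6-like.L (0.594, 95 aligned residues) and P441T in col21a1.L (0.810, 1 aligned residue). P549Q in col8a1.L (0.022), P1369T in col4a6-like.L (0) and P1378A in col4a1.S (0) were benign on 3 aligned residues each. The remaining sites, in col3a1.S, col4a5-like.L and col9a1.L, had none; those last 3 copies were picked for mention with their values known.

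SH3 and actin adaptors, chosen for their known proline-rich stretches, held 5 of 25 (20%, 8.86 to 39.1) in 4 of 13 copies. In synj1-like.L, related to a synaptic phosphoinositide phosphatase, P2256Q was possibly damaging (0.903, 72 aligned residues) and P2490R benign (0.019). The sites of synj1-like.S (P1302L, 0.037), of the actin regulator wasf2.S (P238L, 0) and of the postsynaptic scaffold shank1.S (P1330S, 0) were benign. The intervals of this list and of the collagens lay above the share over all copies with a symbol, and each rests on few sites. Both sets are known for stretches rich in proline, so their higher shares are a description and not a finding about these genes.

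Kinases, chromatin regulators and zinc finger genes had intervals that included that share. Serine/threonine kinases held 5 of 39 (12.8%, 5.60 to 26.7), and all 5 were benign. Over all copies with a symbol 39.7% of predicted proline sites were damaging, and 5 sites are too few to compare with it. The highest was P704S in map3k9-like.S at 0.212, beside P446T in prkcd.L (0.049), P381H in stk32b.S (0.003) and P400Q in stk25.S (0). Chromatin regulators held 12 of 176 (6.82%, 3.94 to 11.5), with 4 of 10 predicted sites damaging, near the 39.7% over all copies with a symbol. Among them were P953S in kdm5b.S, P223S in the histone deacetylase hdac9.L (0.999, 114 aligned residues) and P4404A in the methyltransferase kmt2c.L (0.996, 53), while both sites of kmt2c.S were benign on 1 and 2 aligned residues. Zinc finger genes held 16 of 250 (6.40%, 3.98 to 10.1), with 6 of 15 damaging, also near that share, such as P524L in zbtb21.S (0.999, 38 aligned residues), P811H in znf217.S (0.999, 35), P759S in znf654.S (0.987, 17) and P3545H in zfhx3.L (0.952, 1).

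Solute carriers and ion channels also had intervals that included the share over all copies with a symbol. Solute carriers held 4 of 140 (2.86%, 1.12 to 7.12), of which P632S in the amino acid transporter slc6a15-like.L was probably damaging (0.998, 39 aligned residues) and the sites of slco5a1.L (P94Q, 0.067), slc45a4-like.L (P772A, 0) and slc16a12.L (P341A, 0) were benign. Ion channel subunits held 2 of 63 (3.17%, 0.875 to 10.9): P127A in the potassium channel kcnk6.S, probably damaging at 0.998, and P612L in the calcium channel subunit cacna2d2.S, benign at 0.383. Laminins and related matrix genes held 1 of 19, P2546L in the fibrillin copy fbn1.S, listed at 1 with 78 aligned residues. Keratins and desmosomal genes, which build the filaments and junctions of skin, held 0 of 66, which allows a share of up to 4.55% by a limit of 3 counts and up to 5.50% by the Wilson interval. The numbers in these lists are small, and the abundance of proline in each set of proteins was not analysed here.

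**Figure D5:**
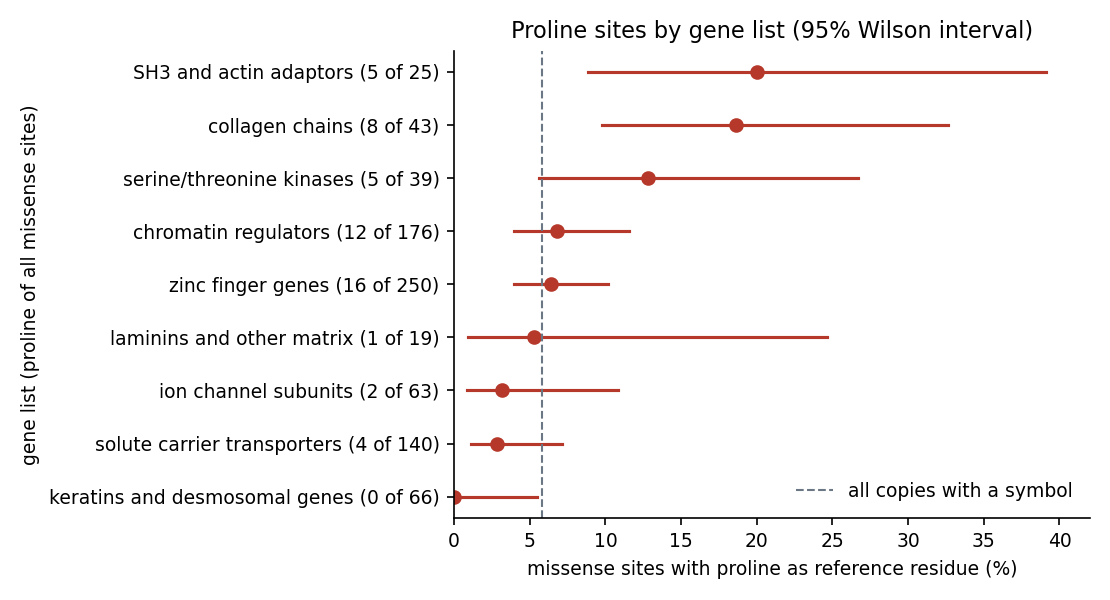
Share of missense sites whose reference residue is proline, in percent, for each gene list (points, with 95% Wilson intervals; brackets give proline sites of all missense sites). The dashed line marks 5.80% over all copies with a symbol; SH3 and actin adaptors (20%) and collagens (18.6%) lie above it and keratins (0 of 66) below.

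Proline sites were not concentrated at the start of the protein. In the first 30 residues lay 95 of them (6.59%, 5.42 to 7.99), against 6.63% of all other sites. The median position was 344 (quartiles 128 and 678), against 308 (123 and 647). Damaging calls among the first 30 residues were 18 of 58 predicted proline sites (31.0%, 20.6 to 43.8) and 17.8% of the others.

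A structure with a secondary structure at the residue was matched to 50 proline sites and 730 others. Alpha helices held 6 of the 50 (12.0%, 5.62 to 23.8), against 38.4% (34.9 to 41.9) of the other sites. Turns and bends held 14 (28.0%, 17.5 to 41.7), against 20.5%, and 20 (40.0%, 27.6 to 53.8) had no assigned structure, against 18.4% (15.7 to 21.3). The median solvent accessibility was 0.526 (quartiles 0.391 and 0.684, 49 sites), against 0.409 (0.198 and 0.613). Of the 49 with a prediction 22 were damaging, beside 37.1% over all predicted proline sites. These were 2 of 14 in turns and bends, 2 of 6 in alpha helices and 1 of 3 in strands. Other structures held 4 of 7, and sites without assigned structure 13 of 19. The numbers per class are small, and the differences between classes were not tested. The leading examples, named after their values were seen, were P119R in ctss.L and P374L in the zinc finger factor prdm4.S, both listed at 1 and without assigned structure, and P301T in the gluconeogenic enzyme pck1.S (0.999), in a turn. In alox5ap.S, which serves leukotriene synthesis, P65S (0.998) lay in an alpha helix with an accessibility of 0.173.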

How the data were processed

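The authors deposited 3 tables of the whole series: counts of missense and synonymous sites per gene, a table of sites with PolyPhen-2 output, and pairs of L and S gene models. In the deposited site table the predicted probability is a fraction from 0 to 1, profile and similarity values are scores, and aligned residues are counts, per the file headers. Tools listed in the submitters' processing notes, with no order or role, are SAMtools, TopHat, Trimmomatic and CASAVA 1.8.2. How variants were called and filtered, and on which build, is not given in the sources used here. Total RNA was depleted of ribosomal RNA before library construction, per the labels' protocols. Read depth per site was not analysed here.

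Reference residues were stripped of spaces and matched to proline. Shares use predicted sites. Python 3.11.15, pandas 2.3.3 and SciPy 1.17.1 were used. Intervals were tested on large groups of simulated independent sites, which does not cover small groups or sites that share a gene. No p-values were computed, because there is 1 library per group. Symbols come from the pair table (6830 of 8660 pairs); names starting with Xetrov, LOC or MGC were not counted as symbols. Lists follow symbol starts, without look-alike genes of other families. Copies left out numbered 9 for kinases, 7 for SH3 and actin adaptors, 5 for laminins and related matrix genes and 2 for chromatin regulators. Of the per-gene table, 1 stray header line was left out.

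Named copies were those with the most proline sites (12), those with 3 or more damaging ones, the 2 highest sites per new residue with at least 10 aligned residues, the 8 pairs with most sites in both copies, and up to 4 per list. Members and lists were chosen with earlier results of these data known. The authors' protein sequences and RefSeq proteins were not used here, so no residues around a site are shown.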

Additional observations from a re-analysis of the deposited data

How the results depend on the processing

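The 16 shares and differences were recomputed under 84 alternative settings in all, and 66 values stayed within the interval of the reported value, 3 of them with the sign reversed. The 66 include the values for single-base changes only. That setting could move none of the 16, because every site was an exchange that a single base change can reach. Counting probably damaging sites only moved the damaging share of proline sites to 15.6% and its difference from other sites to 9.04 points. It moved the shares to 14.4% for serine, 12.8% for leucine, 17.7% for threonine, 11.5% for glutamine, 13.4% for alanine, 34.2% for histidine and 18.2% for arginine. At a probability of at least 0.9 the share was 17.4% (7.36% over all sites) and the difference 10.6 points. The shares were 14.7% for serine, 12.8% for leucine, 18.3% for threonine, 17.7% for glutamine, 13.4% for alanine and 34.2% for histidine. Arginine, at 43.2%, was then above histidine and stayed within the interval of its reported value. Of its predicted sites, 4 with 1 aligned residue and 7 with 2 to 9 had the fixed value 0.908. These sites pass 0.9 but lie just below the boundary of 0.909 for probably damaging. The moves in these 2 settings follow from the narrower class. With at least 10 aligned residues leucine moved to 29.8%; the cause was not tested. The difference of S and L copies reversed in 3 settings, to -2.03 points with probably damaging sites only, -1.36 at a probability of at least 0.9 and -0.719 with at least 10 aligned residues; the cause was not tested.

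Leaving out the 105 genes with more than 15 missense sites, weighting genes equally or keeping 1 change per position gave differences of 17.6, 17.3 and 18.0 points between proline and other sites. The change kept at a position was that of the highest probability. All sites were exchanges that a single base change can reach, so the setting of single-base changes only changed nothing. Chosen after seeing the data, leaving out sites with 1 aligned residue gave 17.1 points and matching the bins of aligned residues 17.8. No paired analysis was possible because each group has 1 library and no column names a library. Reads behind a site are unknown, so their depth limits every count to an unknown extent.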

Other observations

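At 14 of the 1427 distinct proline positions 2 different residues replaced proline, and no position had more. Keeping 1 change per position left 1125 of 1136 predicted proline sites and 22664 of 22974 at other residues, so such positions are not particular to proline. Of the 11 such proline positions with predictions, both changes were benign at 7, both were damaging at 3 and they were split at 1. The split lay in a gene without a name, where P582R was damaging (0.818) and P582T benign (0.044) with the same 66 aligned residues. In the stress-response factor ddit3.S, P85R (0.973) and P85T (0.960) were both probably damaging on 3 aligned residues. In the zinc finger gene gzf1.S, P658T (0.166) and P658R (0.002) were both benign on 43, and in ppp1r9a.L, which encodes the actin-binding scaffold neurabin, P876L (0.001) and P876S (0) were benign on 1. The choice of these copies was made with their values in view.

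Of 148 neighbouring pairs of changed proline positions within a gene, 10 were at most 10 residues apart. The spacing of changes at other residues was not analysed here, so this count has no reference. Adjacent positions were changed in prcc.L (P158T and P159S) and in tbc1d10b.L (P166L and P167A), without a prediction at either position. In vcan.L, which encodes the matrix proteoglycan versican, P520T (0.810) and P2604L (0.856) were called damaging on 3 and 6 aligned residues. In mtdh.S both changes, P87L and P453L, had the value 0.856 on 1 aligned residue each. Both vcan.L and mtdh.S were chosen in the same way.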
